A study of Rattus norvegicus with 60 samples.

Results

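The series holds 2 groups of rats that received the corn oil vehicle for 24 h, coded CO_24h and CO_Co_24h, and the comparison described here sets the first against the second in each of the 2 cell fractions taken from their livers. The arrays were chosen by their group labels: 5 of CO and 4 of CO_Co from hepatocytes (HC), the parenchymal cells of the liver, and 5 of CO and 4 of CO_Co from the mesenchymal cell fraction (MC), together 18 of the 60 arrays of the series. The labels describe both groups alike, as female Wistar rats given corn oil at 10 ml/kg, and the growth protocol calls the strain Han-Wistar. The rats were 8 weeks old. The labels do not say what the letters Co stand for, nor when the animals of either group were treated, fed or killed. Each array carried labelled RNA (250 ng of input) on an Affymetrix expression array of the rat genome. The wider study compared the liver carcinogens phenobarbital and cyproterone acetate (CPA), a steroidal antiandrogen given in corn oil, with their vehicles. Of its other groups, 3 are used here for context: corn oil for 6 d (3 arrays per fraction, female), CPA at 100 mg/kg for 24 h (3 arrays per fraction, female), and water for 24 h (3 arrays per fraction, labelled male except replicate 3, labelled female). Nothing in the labels says that the replicates are separate animals, so the p-values below measure the spread between arrays, which may be technical. The main fits of a fraction pooled this spread over all 9 of its groups (30 arrays), the treated groups included.

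The liver moves daily between making and burning fat. After a meal, insulin drives the synthesis of fatty acids through enzymes such as fatty acid synthase and stearoyl-CoA desaturase, and during a fast fatty acids reach mitochondria and peroxisomes, where beta-oxidation shortens them. The nuclear receptor PPAR-alpha, which is activated by fatty acids, turns on many genes of fatty acid oxidation and of lipid handling, and Vnn1 and Acot2 are among its known target genes. A circadian clock runs in hepatocytes as in other liver cells: CLOCK and BMAL1 activate Per, Cry, Nr1d1 and Dbp, the PER and CRY proteins inhibit them in turn, and NR1D1 (REV-ERB-alpha) represses Bmal1. Feeding and fasting and the hour of sampling both move these transcripts in liver.

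The arrays were first compared with one another, since the groups carry the same replicate numbers. Replicate 1 of CO and replicate 1 of CO_Co from hepatocytes were the closest of all 435 pairs of HC arrays in the series. Their log2 values differed with a robust SD (the scaled median absolute deviation) of 0.1145 over the 6777 genes with a mean above 5, and 6 of these genes differed by more than 2-fold. The next closest pair, replicates 2 and 3 of CPA at 6 d, had a robust SD of 0.1737 with 44 such genes. Pairs of arrays within the CO group had robust SDs of 0.1965 to 0.2786, and pairs within CO_Co 0.1903 to 0.281. Replicate 1 of CO and replicate 1 of CO_Co from MC were the third closest of 435 MC pairs, at 0.2145, and the number 2 arrays of the same groups lay at 0.2352, below the pairs of unlike number between these groups (lowest 0.3032). Whether arrays of the same number share an animal, a dissection or a sample was not tested. Hepatocyte counts and the genes that passed are given with and without the number 1 arrays, and other values with all arrays unless stated.

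**Figure D1:**
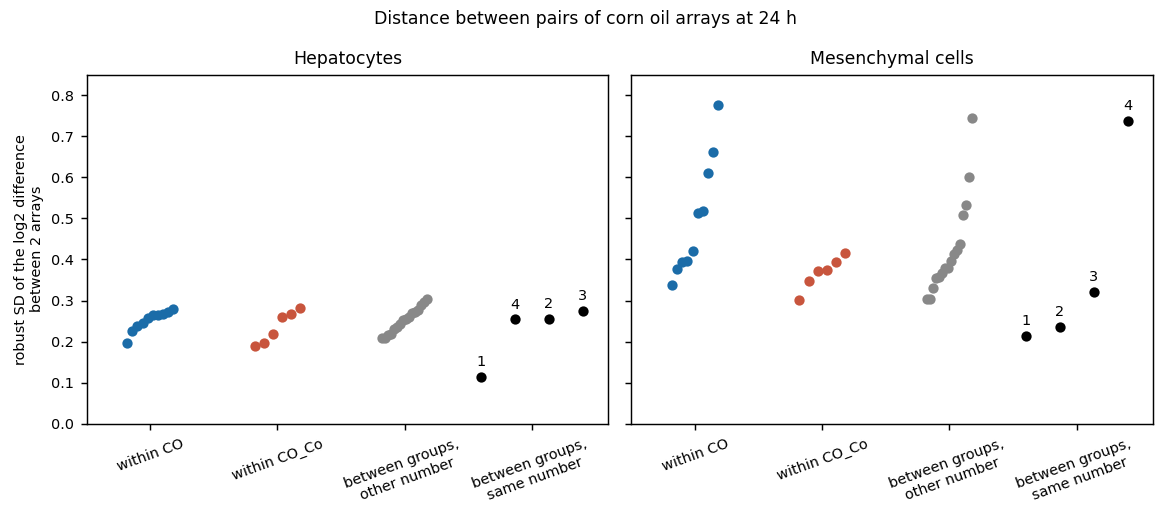
Distance between pairs of corn oil arrays at 24 h in hepatocytes (left) and mesenchymal cells (right). Each point is 1 pair of arrays, the y axis is the robust SD of their log2 difference over 6777 genes, and the numbers on the black points are the replicate number shared by a CO and a CO_Co array. The hepatocyte pair of number 1 lies at 0.1145, below every other pair of HC arrays shown, while numbers 2 to 4 there lie among the pairs of unlike number. In mesenchymal cells the pairs of numbers 1 and 2, at 0.2145 and 0.2352, lie below all pairs of unlike number.

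The fractions were checked against marker lists. The mean log2 value of 17 hepatocyte markers was 11.84 to 12.05 on the 9 HC arrays and ran from 6.60 to 10.30 on the 9 MC arrays. The mean of 12 Kupffer cell and macrophage markers was 9.90 to 10.73 in MC and 3.89 to 6.19 in HC, and that of 15 sinusoidal endothelial markers 8.65 to 10.10 in MC and 3.06 to 4.19 in HC. The mean of 15 stellate cell markers was 4.49 to 5.63 in MC and 2.73 to 3.58 in HC. Hepatocyte transcripts thus varied widely between MC arrays. The Y-linked gene Eif2s3y was at 0.71 to 1.43 on the 18 corn oil arrays at 24 h and at 7.07 to 7.41 on the 6 water arrays at 24 h, those labelled female included. Uty, also Y-linked, did not follow the labels, at 6.66 to 8.01 on the corn oil arrays and 6.53 to 6.95 on the water arrays. What its probe set reads was not tested.

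In hepatocytes, CO_Co differed from CO in 10 of 14217 genes, 9 lower and 1 higher (limma, adjusted p under 0.05), which is 0.0703% of the genes tested (0.0633% lower and 0.00703% higher). The genes that fell act in fatty acid oxidation and lipid handling: Eci1, Decr1, Ech1, Hadhb, Acot2 and Crat in oxidation or in the handling of acyl groups, Vnn1, Ephx2 and Aig1 elsewhere. The gene that rose was Stac3. Without the number 1 arrays of both groups, 23 genes passed (0.162% of those tested), 17 lower (0.12%) and 6 higher (0.0422%), and the 10 were all among them. Their changes without number 1 were -3.64 in Vnn1, -1.96 in Eci1, -1.62 in Aig1, -1.53 in Acot2, -1.29 in Crat, -1.27 in Decr1, -1.08 in Ech1, -0.95 in Ephx2, -0.93 in Hadhb and 2.69 in Stac3. Each was farther from 0 than with all arrays, with limma adjusted p from 3.928e-07 (Vnn1) to 0.0083 (Ephx2). The pair was left out after the data were seen, because its arrays lay close together across the groups. Leaving out such a pair tends to widen the difference between groups, so these values are no separate evidence for the 10 genes. At an unadjusted p under 0.05 there were 548 genes (3.85%) with all arrays and 754 (5.3%) without number 1. These fits took the spread from all groups of the fraction. When only the CO and CO_Co arrays were fitted, all of them kept, no gene passed.

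Of the genes that fell, 3 encode enzymes of the oxidation of unsaturated fatty acids. Eci1 encodes the mitochondrial enoyl-CoA delta isomerase, which moves the double bonds of unsaturated fatty acids into the position that beta-oxidation needs. Its log2 level in HC was 10.66, 10.97, 11.09, 11.05 and 11.07 on CO arrays 1 to 5, and 10.55, 8.98, 9.05 and 9.22 on CO_Co arrays 1 to 4. The groups did not overlap, but CO_Co array 1 lay just below CO array 1 while the other three lay far below every CO array. The group means were 10.97 ± 0.18 (SD, n = 5) in CO and 9.45 ± 0.74 (SD, n = 4) in CO_Co, so Eci1 fell by 1.52 on the log2 scale (SE 0.23, limma adjusted p = 0.0054), or 2.86-fold. Decr1, the mitochondrial 2,4-dienoyl-CoA reductase of the same route, was at 10.50, 11.00, 11.03, 10.95 and 10.99 in CO and at 10.50, 9.75, 9.65 and 9.76 in CO_Co. Its number 1 arrays lay at the same level and the other arrays of the groups lay apart, and the mean fell by 0.98 (SE 0.18, adjusted p = 0.0271). Ech1, a dienoyl-CoA isomerase of mitochondria and peroxisomes, was at 9.0, 9.28, 9.48, 9.53 and 9.70 in CO and at 8.97, 8.39, 8.50 and 8.36 in CO_Co. It fell by 0.84 (SE 0.17, adjusted p = 0.0478), with the same placing of number 1 beside CO.

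Hadhb encodes the thiolase subunit of the mitochondrial trifunctional protein, which carries out the last steps of the oxidation of long-chain fatty acids. It was at 9.92, 10.14, 10.34, 10.32 and 10.30 in CO and at 9.97, 9.39, 9.34 and 9.30 in CO_Co, and fell by 0.71 (SE 0.12, adjusted p = 0.0084). The arrays overlapped only through number 1, where CO_Co was the higher. Hadha, the other subunit, missed the threshold with all arrays (change -0.59, SE 0.12, adjusted p = 0.0618) and passed it without number 1 (change -0.77, SE 0.12, adjusted p = 0.0027).

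Acyl groups are moved between coenzyme A, carnitine and the free acid by Crat, the carnitine acetyltransferase, and by Acot2, a mitochondrial acyl-CoA thioesterase. Acot2 was at 7.65, 8.37, 8.41, 8.86 and 8.39 in CO and at 7.71, 7.10, 7.05 and 6.77 in CO_Co, and fell by 1.18 (SE 0.19, adjusted p = 0.0077). The 2 other probe sets named for Acot2 changed by -1.23 and -1.35, without overlap of the groups. Acot1 is a near-identical paralog whose transcripts the probes may not separate fully, and its own probe set was at 1.15 to 1.77 on all 9 HC arrays. Crat was at 6.68, 6.89, 7.23, 7.46 and 7.10 in CO and at 6.63, 6.01, 5.89 and 5.73 in CO_Co, and fell by 1.0 (SE 0.19, adjusted p = 0.0366).

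Vnn1 gave the largest change. It encodes vanin-1, the pantetheinase that releases cysteamine and the coenzyme A precursor pantothenate. Vnn1 was at 5.28, 5.98, 6.97, 6.36 and 6.71 in CO and at 5.06, 2.45, 3.75 and 2.41 in CO_Co, and fell by 2.84 (SE 0.39, adjusted p = 0.0016), or 7.17-fold. CO_Co array 1 lay just under the lowest CO array and the other three far below it. Ephx2, the soluble epoxide hydrolase that acts on epoxides of fatty acids, was at 8.07, 8.27, 8.35, 8.63 and 8.78 in CO and at 7.86, 7.65, 7.61 and 7.40 in CO_Co. It fell by 0.79 (SE 0.16, adjusted p = 0.0478). Aig1, a hydrolase of fatty acid esters of hydroxy fatty acids, was at 6.13, 6.49, 6.74, 6.70 and 6.89 in CO and at 5.97, 5.23, 5.16 and 4.88 in CO_Co, and fell by 1.28 (SE 0.23, adjusted p = 0.0229). In both genes every CO_Co array lay below every CO array. A second probe set for Aig1 and one for Eci1 read low levels (2.22 and 3.37 in CO) and changed by -0.14 and -0.15.

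Stac3, known as an adaptor of the calcium release machinery in skeletal muscle, lies outside the naming rule and is given because it was the only gene that rose. It was at 4.09, 3.97, 3.68, 4.65 and 4.69 in CO and at 4.65, 6.27, 7.18 and 7.37 in CO_Co, and rose by 2.15 (SE 0.35, adjusted p = 0.0077). CO_Co array 1 lay within the range of CO and the other three above it.

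**Figure D2:**
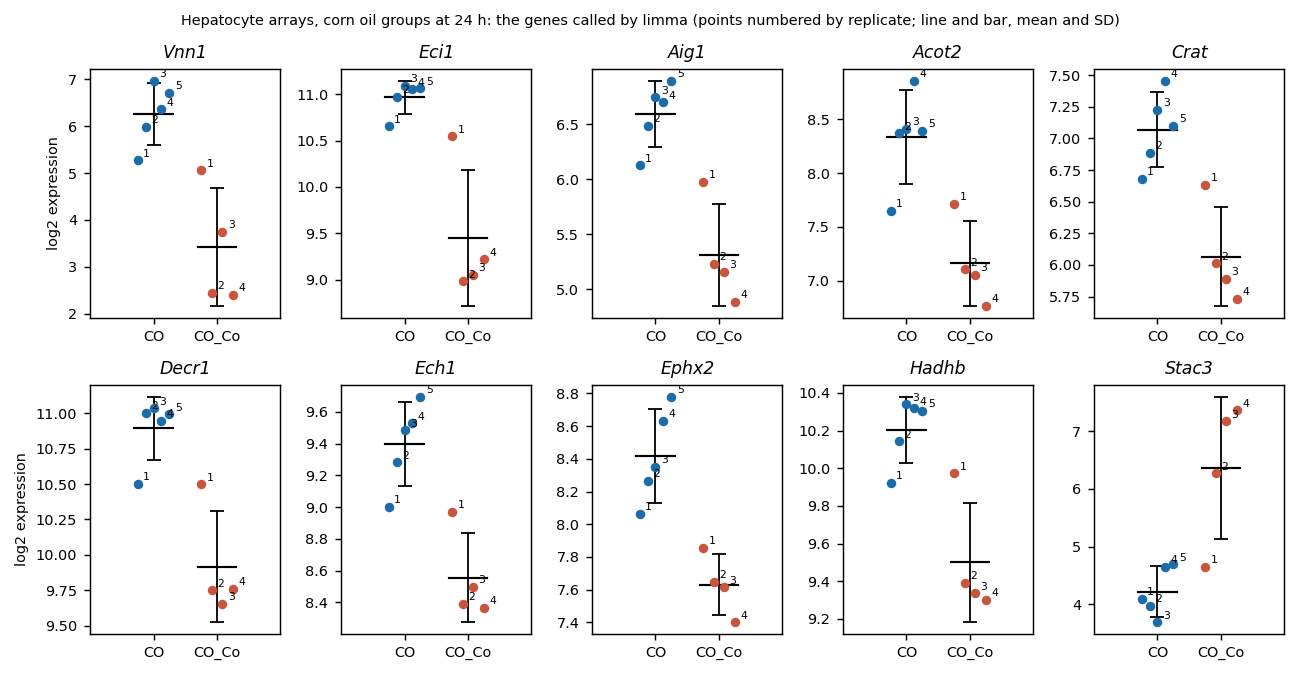
Log2 expression on the hepatocyte arrays of the 10 genes that passed the test, CO in blue and CO_Co in red, 1 panel per gene with its own y axis that does not start at 0. Points carry the replicate number, the line is the group mean and the bar its SD (n = 5 and n = 4). In every panel but that of Ephx2, CO_Co array 1 lies nearer to CO array 1 than to CO_Co arrays 2 to 4, as for Eci1 at 8.98 to 9.22 against 10.55.

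Of the 10 genes, 6 matched a promoter in the RefSeq table (build GRCr8, 250 bases before to 50 after the gene's start). Since several of them fell together, their promoters were searched on both strands for AGGTCA, the core letters of the elements that PPAR, RXR and many other nuclear receptors recognise. Elements known for CLOCK and BMAL1, for DBP, for REV-ERB and ROR, and for CREB were searched as well. Each of these was found in 0 of the 6. The core letters were found in 3 of the 6, and in 15.7% of all 27457 promoters of this length. The 3 are shown, with the match in capitals. It reads TGACCT because it lies on the other strand of each. Eci1 lies at chr10:13961000-13961299 (plus strand, match from base -94), Hadhb at chr6:31907451-31907750 (minus strand, match from base 43 after the start) and Stac3 at chr7:65228225-65228524 (plus strand, match from base -125).
Eci1: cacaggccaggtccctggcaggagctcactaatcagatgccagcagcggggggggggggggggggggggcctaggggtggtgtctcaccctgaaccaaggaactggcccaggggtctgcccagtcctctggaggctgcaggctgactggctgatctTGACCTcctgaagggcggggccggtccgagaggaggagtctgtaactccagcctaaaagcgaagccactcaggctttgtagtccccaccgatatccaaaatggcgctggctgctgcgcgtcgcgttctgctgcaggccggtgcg
Hadhb: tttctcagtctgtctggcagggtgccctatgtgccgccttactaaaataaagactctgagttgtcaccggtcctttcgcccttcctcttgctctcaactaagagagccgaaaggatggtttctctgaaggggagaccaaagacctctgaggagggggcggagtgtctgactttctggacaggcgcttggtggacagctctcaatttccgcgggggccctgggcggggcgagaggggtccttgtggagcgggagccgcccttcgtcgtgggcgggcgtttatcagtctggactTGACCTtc
Stac3: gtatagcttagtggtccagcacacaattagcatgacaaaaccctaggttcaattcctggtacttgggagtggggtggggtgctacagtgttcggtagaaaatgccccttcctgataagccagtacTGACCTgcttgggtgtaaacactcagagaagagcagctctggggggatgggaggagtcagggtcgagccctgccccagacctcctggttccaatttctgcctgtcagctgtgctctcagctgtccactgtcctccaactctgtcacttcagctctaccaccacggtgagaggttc
Stac3 holds the match and rose, Eci1 and Hadhb hold it and fell. Hadha starts on the opposite strand beside Hadhb (chr6:31907551-31907850, plus strand), so their windows overlap and are not independent. Over both oxidation lists, 11 of 38 promoters matched (28.9%). Among the genes that passed without the number 1 arrays, 5 of 16 promoters did (31.25%). A match of letters is a description and shows no binding.

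The calls depended on which arrays were used. With each of the 9 arrays left out in turn, Vnn1 passed in all 9 fits, Eci1, Acot2 and Stac3 in 7, Hadhb in 6, and Aig1, Crat, Decr1, Ech1 and Ephx2 in 2 each, those without replicate 1 of CO or of CO_Co. The number of genes passing was 16 without CO replicate 1, 5 without each of CO replicates 2, 3, 4 and 5, 22 without CO_Co replicate 1, 4 without CO_Co replicate 2, and 1 without CO_Co replicate 3 or replicate 4. When only the 9 arrays compared were fitted, no gene passed (800 at an unadjusted p under 0.05), and with the pair of number 1 also left out 20 passed.

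Few genes of mitochondrial oxidation passed, but most lay lower in CO_Co. Of 24 measured genes of mitochondrial oxidation and ketogenesis, 5 fell and none rose, 22 had a change below 0, and the median change was -0.37. Over all 14217 genes, 9 fell (0.0633%), 6755 had a change below 0, and the median was 0.0083. The lists were chosen with earlier results of these data known. Without number 1, 7 of the list fell, against 0.12% of all genes, and its median was -0.48. The 7 are Eci1, Acot2, Crat, Decr1, Hadhb, Hadha and Acadl, the long-chain acyl-CoA dehydrogenase (-0.62, SE 0.11, adjusted p = 0.0083). Acadm, the medium-chain enzyme, was at 10.03 to 10.43 in CO and 9.87 to 10.06 in CO_Co and changed by -0.33 (SE 0.11, adjusted p = 0.999). Cpt1a, which controls the entry of fatty acids into mitochondria, was at 7.92, 8.99, 9.34, 9.51 and 9.45 in CO and at 7.97, 8.73, 8.40 and 9.01 in CO_Co. Both number 1 arrays were the lowest of their groups, and the change of -0.51 (SE 0.32, adjusted p = 0.999) was within the spread. The uncoupling proteins Ucp2 and Ucp3 were the only members with a change above 0 (0.18 and 0.14).

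Of 19 measured genes of peroxisomal and microsomal oxidation, 1 fell (Ech1), against 0.0633% of all genes. A change below 0 was found in 18 of them, against 6755 of all 14217, and the median was -0.30. Without number 1, Hsdl2, a hydroxysteroid dehydrogenase-like protein of peroxisomes and mitochondria, also passed (-1.21, SE 0.20, adjusted p = 0.0027). Its levels were 8.33, 8.69, 8.94, 8.71 and 8.38 in CO and 8.45, 7.27, 7.54 and 7.60 in CO_Co. Cyp4a1, a fatty acid omega-hydroxylase and a standard PPAR-alpha target, was at 10.42 to 10.74 in CO and at 10.50, 9.78, 10.07 and 10.12 in CO_Co, a change of -0.49 (SE 0.14, adjusted p = 0.556), or -0.65 (adjusted p = 0.101) without number 1. Cyp4a3 changed by -0.35 (SE 0.25) and Ehhadh, the peroxisomal bifunctional enzyme, by -0.15 (SE 0.23), and neither passed. Ehhadh lay at 8.82 to 9.40 in CO and 8.79 to 9.05 in CO_Co, so the ranges overlapped, with CO reaching higher. The changes in the list ran from -0.97 in Acot4 to 0.09 in Acot8.

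Among 21 genes of lipid uptake, droplets and lipolysis only Vnn1 fell, and the median was -0.06. Ppara itself changed by 0.23 (SE 0.23, adjusted p = 0.999). Angptl4, a secreted inhibitor of lipoprotein lipase that fasting induces, was at 8.65, 8.93, 8.63, 8.52 and 7.91 in CO and at 8.75, 8.31, 8.89 and 8.08 in CO_Co, a difference of -0.02 (SE 0.37). Its sign turned with array weights. Cd36, a fatty acid translocase, changed by -0.76 (SE 0.38, adjusted p = 0.999, and -0.95 without number 1), and Plin2, which coats lipid droplets, by -0.46 (SE 0.29, adjusted p = 0.999). The groups overlapped in all 3.

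Most genes of lipogenesis and feeding lay higher in CO_Co, and none of the 19 measured passed with all arrays. Of these, 17 had a change above 0, against 7462 of all 14217 genes. Their median was 0.34, or 0.47 without number 1. Scd, the stearoyl-CoA desaturase that makes oleate, was at 8.81, 8.63, 8.50, 9.51 and 9.18 in CO and at 8.93, 10.59, 11.29 and 12.01 in CO_Co. CO_Co array 1 again lay within CO, the other three above all of it, and the change of 1.78 (SE 0.51) had an adjusted p of 0.565, or 0.0617 without number 1 of both groups (change 2.34, SE 0.51). It passed without CO_Co replicate 1 alone (change 2.37, adjusted p = 0.0281), the only setting in the fit of all groups in which a gene of this list did. Fasn, fatty acid synthase, was at 9.46, 8.47, 8.57, 9.68 and 9.74 in CO and at 9.57, 9.87, 10.13 and 10.16 in CO_Co (0.75, SE 0.27, adjusted p = 0.999, and 0.94 without number 1, adjusted p = 0.506). Here CO itself was divided, with replicates 2 and 3 lowest. Elovl6, which elongates palmitate, was at 8.59, 7.65, 7.21, 8.35 and 8.53 in CO and at 8.67, 9.34, 8.93 and 9.33 in CO_Co, the only member whose groups did not overlap (1.0, SE 0.29, adjusted p = 0.577). Over all genes, 0.971% were higher without overlap and 0.717% lower. Pnpla3 (1.04, SE 0.32), Thrsp (0.85, SE 0.49) and Srebf1 (0.43, SE 0.23), a lipase, a lipogenic nuclear protein and the transcription factor that insulin induces, did not pass either.

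None of 30 measured genes of fasting and gluconeogenesis passed, 22 had a change above 0, and the median was 0.14. Pck1, the gluconeogenic PEP carboxykinase, was at 11.76, 11.65, 11.98, 11.55 and 11.96 in CO and at 11.71, 11.77, 11.90 and 12.02 in CO_Co, a difference of 0.07 (SE 0.15). Igfbp1, an insulin-repressed binding protein, differed by 0.11 (SE 0.35). Pdk4, the kinase that shuts glucose carbon out of mitochondria in fasting, was at 9.83, 8.96, 10.06, 8.98 and 8.32 in CO and at 10.12, 8.90, 9.02 and 8.02 in CO_Co. Its spread within each group (SD 0.71 and 0.86) exceeded the difference of -0.22 (SE 0.49). Fgf21, a hormone of the fasted liver, changed by -0.52 (SE 0.40) and Ppargc1a, the coactivator PGC-1-alpha, by 0.36 (SE 0.28), neither past the threshold. The member farthest from 0 was Sds, serine dehydratase, at 6.33, 5.66, 6.36, 6.33 and 8.64 in CO and at 6.58, 8.21, 8.91 and 9.88 in CO_Co (1.73, SE 0.63, adjusted p = 0.999). CO array 5 lay with CO_Co arrays 2 to 4 in this gene, and CO_Co array 1 with CO arrays 1 to 4.

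**Figure D3:**
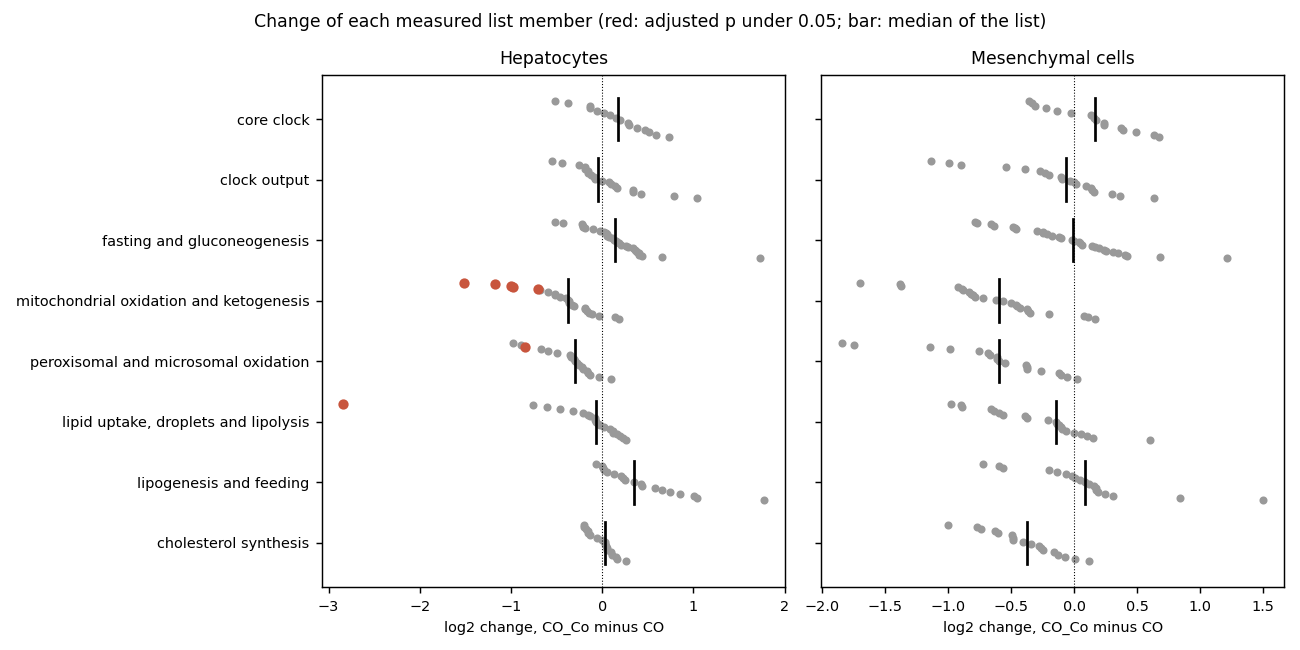
Change of each measured member of 8 gene lists (x axis, log2 scale, CO_Co minus CO) in hepatocytes (left) and mesenchymal cells (right). Each point is 1 gene, red points passed the test and the black bar is the list's median. In hepatocytes the oxidation lists lie left of 0 with medians of -0.37 and -0.30 and lipogenesis right of it at 0.34. In mesenchymal cells both oxidation lists have a median of -0.59, cholesterol synthesis has one of -0.37, and no gene passed.

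No clock gene differed between the groups by the test, and several varied widely within each group. None of 16 measured core clock genes and none of 20 measured clock output genes passed in hepatocytes, and the medians were 0.18 and -0.04. Bmal1 was at 5.90, 4.43, 5.04, 5.10 and 3.54 in CO and at 5.66, 4.19, 4.30 and 3.00 in CO_Co, a difference of -0.52 (SE 0.56, adjusted p = 0.999). Dbp, a transcription factor whose level follows the clock closely, was at 4.43, 6.79, 5.60, 6.16 and 7.47 in CO and at 4.73, 7.51, 7.22 and 8.03 in CO_Co, a difference of 0.78 (SE 0.63, adjusted p = 0.999). In each group array 1 was highest in Bmal1 and lowest in Dbp, and CO array 5 and CO_Co array 4 were the reverse. Within CO alone Dbp spanned 3.03 on the log2 scale, and within CO_Co 3.30. Noct, a clock-controlled gene also called nocturnin, was at 5.25, 4.40, 5.35, 6.04 and 8.21 in CO and at 5.25, 6.82, 6.71 and 8.77 in CO_Co (1.04, SE 0.69). Its value in CO array 5 stood above all other CO arrays.

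Of the inhibitors in the loop, Per1 differed by 0.29 (SE 0.18), Per2 by 0.20 (SE 0.40), Per3 by 0.52 (SE 0.45), Cry1 by 0.39 (SE 0.24) and Nr1d1 by 0.47 (SE 0.32), all with an adjusted p of 0.999. Per2 was at 6.02, 6.39, 6.48, 6.10 and 6.72 in CO and at 6.04, 5.95, 6.58 and 7.57 in CO_Co, so that 1 array set most of its difference. Without CO_Co array 4 that difference turned to -0.15. Clock (-0.38, SE 0.23), Npas2, a partner of BMAL1 related to CLOCK (-0.14, SE 0.59), and Tef, a transcription factor of the DBP family (0.08, SE 0.31), did not pass. Bhlhe40, a repressor of CLOCK and BMAL1, had the largest positive change of the core list (0.73, SE 0.26, adjusted p = 0.999). No clock gene passed without number 1.

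**Figure D4:**
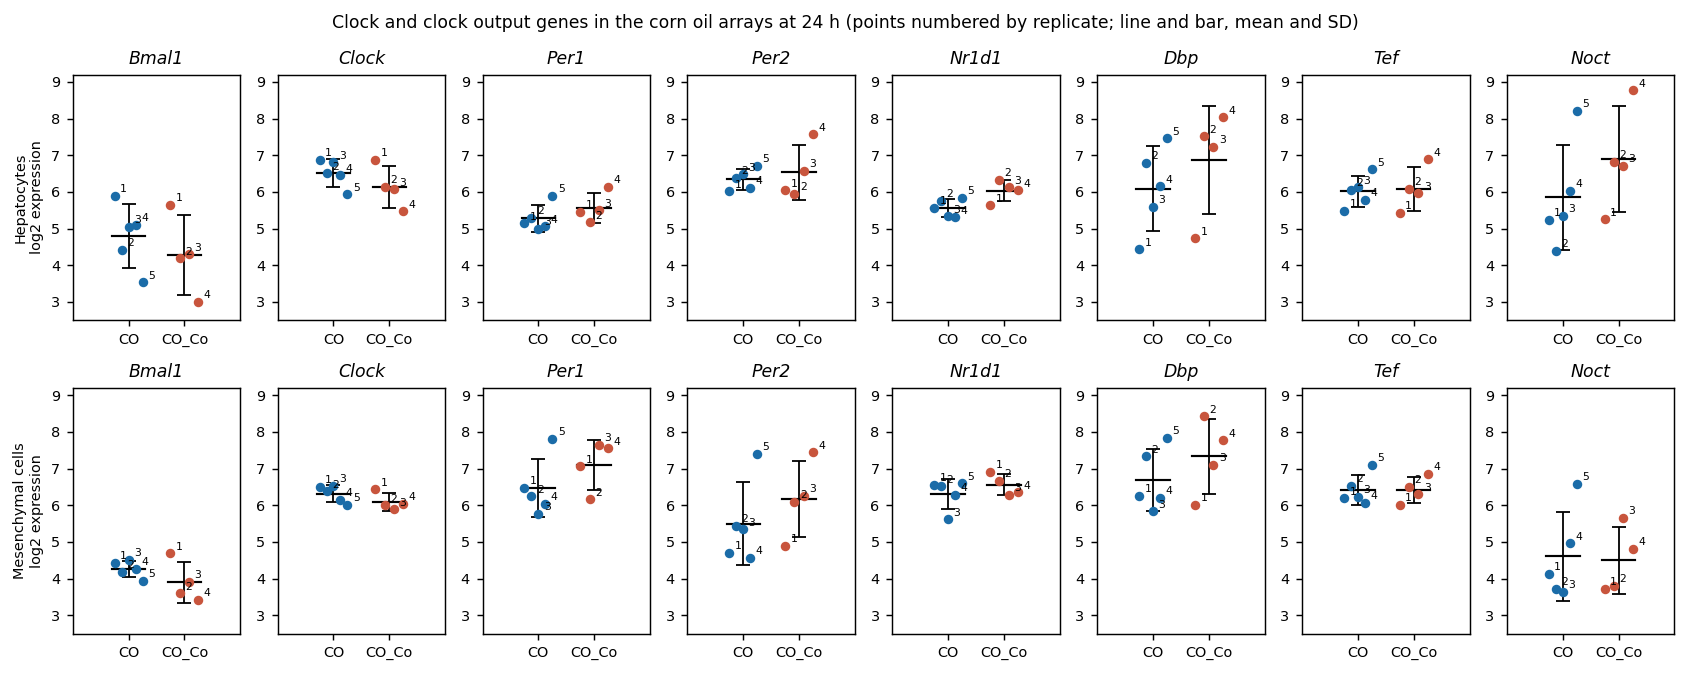
Log2 expression (y axis, the same in every panel) of 8 clock and clock output genes on the corn oil arrays at 24 h, hepatocytes above and mesenchymal cells below, CO in blue and CO_Co in red. Points carry the replicate number, the line is the mean and the bar the SD (n = 5 and n = 4). The arrays of a group spread widely, as Dbp in hepatocytes does from 4.43 to 7.47 in CO and from 4.73 to 8.03 in CO_Co.

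For some clock genes the differences between arrays were related across the fractions, but the share of all genes so related was not determined. The replicate numbers link the fractions: over the 6777 genes with a mean above 5, the deviation of an HC array from its group mean correlated with that of the MC array of the same group and number with r = 0.115 to 0.371 in all 9 pairs. Arrays of unlike number had median correlations of -0.07 in CO and -0.05 in CO_Co. Deviations within a group sum to 0, so positive values for like numbers push those of unlike number below 0. For 10 clock genes the deviations from the group mean were compared between the fractions over 8 linked pairs, with CO_Co number 1 left out and CO number 1 kept. The permutations shuffled all 8 deviations across both groups, although these had been centred within each group. Values centred in this way cannot be exchanged freely, so the permutation p-values below are approximate. Per1 had r = 0.86 (permutation p = 0.0035, adjusted over the 10 genes 0.0278), and r = 0.74 without the 2 pairs farthest from the median. Its Spearman rho was 0.88 (permutation p = 0.0072, adjusted 0.0536). Tef had r = 0.86 (permutation p = 0.0056, adjusted 0.0278), falling to 0.48 without the 2 farthest pairs. Its rho was 0.74 (permutation p = 0.0458, adjusted 0.0917). Bmal1 had r = 0.83 (permutation p = 0.0123, adjusted 0.0411), falling to 0.50. Its rho was 0.79 (permutation p = 0.0279, adjusted 0.0917). The relations of Tef and Bmal1 thus rest in part on 2 pairs each. The other 7 genes had r from 0.09 (Per3) to 0.74 (Nr1d1) and none passed after adjustment. By rank correlation none of the 10 did (lowest adjusted p 0.0536, permutation test). The hepatocyte marker mean also differed between these MC arrays, and its part in these relations was not tested.

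Clock genes are known to act on one another through short elements, and the promoters of Bmal1 and Per2 are shown because these genes stand at opposite ends of the loop and each window held such a motif. The Bmal1 window (chr1:176766078-176766377, plus strand, GRCr8) holds TAGGTCA, the core of the element bound by REV-ERB and ROR, from base -16, found on either strand in 2.6% of all promoters. The Per2 window (chr9:99496944-99497243, minus strand) holds TTATGTAA, the D-box bound by DBP, TEF and HLF, from base -192, found in 0.881% of all promoters. The capitals mark these matches, and the first also contains AGGTCA.
Bmal1: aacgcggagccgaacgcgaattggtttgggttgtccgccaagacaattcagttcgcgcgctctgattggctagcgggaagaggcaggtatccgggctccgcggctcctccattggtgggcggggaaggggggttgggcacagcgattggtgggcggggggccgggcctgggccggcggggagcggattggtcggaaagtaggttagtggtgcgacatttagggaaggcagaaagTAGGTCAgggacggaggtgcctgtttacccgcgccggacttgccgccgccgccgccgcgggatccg
Per2: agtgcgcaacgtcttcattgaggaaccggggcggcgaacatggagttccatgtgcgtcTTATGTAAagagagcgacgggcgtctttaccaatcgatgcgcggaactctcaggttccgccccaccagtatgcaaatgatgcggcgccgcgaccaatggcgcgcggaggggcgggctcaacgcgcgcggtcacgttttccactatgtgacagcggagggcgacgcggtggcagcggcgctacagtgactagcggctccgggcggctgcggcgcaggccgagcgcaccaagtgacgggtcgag
Of the 10 named clock genes with a promoter in the table, each of these motifs was found in 1, and the E-box CACGTG, the site of CLOCK and BMAL1, in 1 as well (Tef, 6.65% of all promoters). In 7 of the 10 windows none of the motifs searched was found.

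In mesenchymal cells no gene passed (limma, adjusted p under 0.05), and 384 genes (2.7%) had an unadjusted p under 0.05. Without number 1 of both groups none passed either, with 648 genes (4.56%) at an unadjusted p under 0.05. Most oxidation genes lay lower in CO_Co, with a wide spread between the CO arrays. Of 24 mitochondrial genes 21 had a change below 0 with a median of -0.59, and of 19 peroxisomal and microsomal genes 18 did with the same median, against 0.010 over all genes. A lower level in MC was not particular to oxidation. All 17 measured acute phase genes (median -0.36), 16 of 18 genes of cholesterol synthesis (-0.37) and 11 of 17 hepatocyte markers (-0.25) also had a change below 0. The lists of lipogenesis and fasting lay near 0. Decr1 was at 7.38, 9.95, 9.47, 10.91 and 9.54 in CO and at 7.44, 8.59, 7.54 and 7.43 in CO_Co, a change of -1.70 (SE 0.46, adjusted p = 0.99). Eci1 was at 7.41, 9.14, 8.56, 10.35 and 9.13 in CO and at 7.41, 7.60, 7.57 and 7.59 in CO_Co (-1.37, SE 0.43, adjusted p = 0.99). CO array 1 lay at the level of CO_Co in both genes and CO array 4 far above.

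The same arrays stood apart in hepatocyte transcripts. The mean of the 17 hepatocyte markers in MC was 6.60, 9.36, 8.44, 10.30 and 9.18 on CO arrays 1 to 5 and 7.74, 9.24, 8.87 and 8.28 on CO_Co arrays 1 to 4. The oxidation lists followed them within CO, lowest on array 1 (6.53 for the mitochondrial list) and highest on array 4 (8.41). In CO_Co the hepatocyte marker mean reached 9.24 on array 2, where the mitochondrial list was at 7.28, while CO array 5 with 9.18 had 7.50. On CO_Co array 3 the markers were at 8.87 and the list at 6.76, while CO array 3, with fewer marker transcripts (8.44), had 7.23. The list was at 7.66 on CO array 2 (markers 9.36), at 6.63 on CO_Co array 1 (7.74) and at 6.66 on CO_Co array 4 (8.28). When the mean of the hepatocyte markers entered the fit as a covariate, Decr1 passed (-1.51, adjusted p = 0.0071) and was the only gene that did. It was also the only gene called without MC CO replicate 1 (-2.21, adjusted p = 0.0308), and it did not pass without number 1 of both groups (-2.11, adjusted p = 0.247). In a bulk fraction such as this, fewer hepatocytes and less RNA per hepatocyte cannot be told apart.

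Genes of the other lists did not pass in MC. Lipogenesis had a median of 0.08 with Scd at 3.50, 3.82, 3.43, 5.75 and 4.35 in CO and 4.71, 5.19, 6.55 and 6.22 in CO_Co (1.5, SE 0.40, adjusted p = 0.99). Only CO array 4, the one richest in hepatocyte markers, reached into the CO_Co range. Core clock genes had a median of 0.16, with Dbp at 6.26, 7.34, 5.84, 6.20 and 7.83 in CO and 6.01, 8.43, 7.11 and 7.77 in CO_Co (0.64, SE 0.45). Per1 (0.64, SE 0.35) and Per2 (0.68, SE 0.55) lay higher and Bmal1 lower (-0.36, SE 0.33), none past the threshold. Fasting genes had a median of -0.01, and Pck1 ranged from 7.01 (array 1) to 9.99 within CO.

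The fractions were then compared directly. Of 14217 genes, 1 differed in its change between HC and MC (0.00703%), Vnn1, by -2.90 (SE 0.49, limma adjusted p = 0.005). This test did not pair the HC and MC arrays of the same number. With those arrays paired, the difference was again -2.90 (limma adjusted p = 0.0076). In MC Vnn1 was at 5.97, 5.95, 6.52, 5.63 and 6.32 in CO and at 6.18, 5.59, 6.35 and 6.43 in CO_Co, a change of 0.06 (SE 0.26). The arrays of the groups overlapped fully there, while in HC they were apart. The difference for Vnn1 was -3.69 without the pair of number 1 in HC (adjusted p = 3.1e-07). It missed the threshold without HC CO_Co replicate 2 (-2.57, adjusted p = 0.0522) or replicate 4 (-2.56, adjusted p = 0.0525) and when only the 18 arrays were fitted. For Eci1 the difference was -0.14 (SE 0.50), for Hadhb -0.08 (SE 0.21), for Acot2 -0.28 (SE 0.33) and for Decr1 0.72 (SE 0.50), and for none of these did it pass. Stac3 rose in HC and changed by 0.55 (SE 0.43) in MC, and that difference of 1.60 (SE 0.57) did not pass either. At an unadjusted p under 0.05, 296 genes (2.08%) differed between the fractions.

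Set beside other vehicle groups of the same fraction, CO_Co arrays 2 to 4 of hepatocytes lay away from the corn oil arrays at 6 d. Eci1 was at 10.21 to 10.96 in corn oil at 6 d, near CO at 24 h, and at 9.28 to 9.37 on the water arrays at 24 h, near CO_Co arrays 2 to 4 (8.98 to 9.22). Decr1 was at 10.72 to 10.89 in corn oil at 6 d and 9.73 to 9.96 in water, and Hadhb at 9.99 to 10.24 and 9.24 to 9.48. Acot2 likewise was at 7.83 to 8.42 in corn oil at 6 d and at 6.90 to 7.21 in water. Other genes did not place CO_Co beside water. Vnn1 was at 6.80 to 6.92 in corn oil at 6 d and 4.95 to 5.29 in water, above the 2.41 to 3.75 of CO_Co arrays 2 to 4, and Stac3 was at 9.98 to 10.64 in water, above their 6.27 to 7.37. Cd36 was at 2.07 to 2.21 in water and 6.51 to 7.65 in CO_Co. The water arrays differ from the corn oil arrays in vehicle and, for replicates 1 and 2, in labelled sex. Replicate 3 is labelled female but had Eif2s3y at the level of the other water arrays, so vehicle and sex cannot be told apart.

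**Figure D5:**
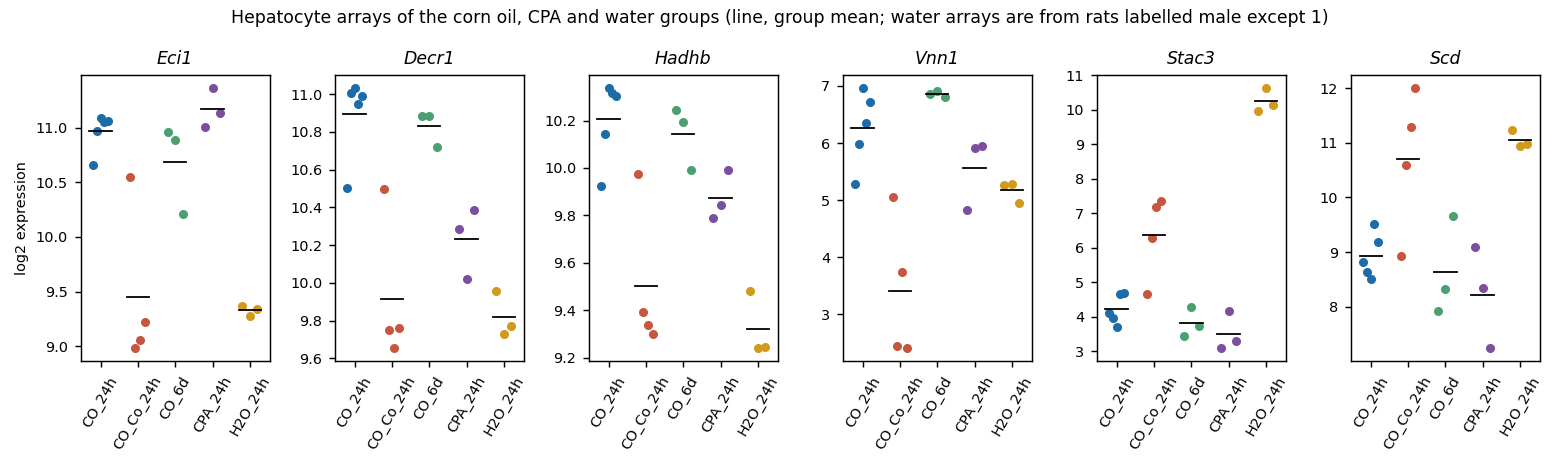
Log2 expression (y axis, own scale per gene, not starting at 0) of 6 genes on the hepatocyte arrays of the groups CO_24h, CO_Co_24h, CO_6d, CPA_24h and H2O_24h, 1 point per array with the group mean as a line (n = 5, 4, 3, 3 and 3). For Eci1, Decr1 and Hadhb the lower CO_Co points lie at the level of the water arrays and the highest at that of corn oil. For Vnn1 they lie below all groups, down to 2.41.

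CPA at 24 h can be set against either corn oil group. The 2 comparisons share the CPA arrays, and for each gene they differ by exactly the change between CO and CO_Co given above, so the values below restate that change and are no separate evidence of it. In hepatocytes 4868 genes (34.2%) passed for CPA minus CO and 4909 (34.5%) for CPA minus CO_Co, and 4659 and 4739 without number 1 of the corn oil group. Eci1 changed by 0.20 (SE 0.26, adjusted p = 0.585) against CO and rose by 1.72 (SE 0.27, adjusted p = 1.165e-05) against CO_Co. Acot2 changed by 0.21 (SE 0.21) and rose by 1.39 (SE 0.22, adjusted p = 1.451e-05), and Crat changed by 0.39 (SE 0.21) and rose by 1.39 (SE 0.22, adjusted p = 1.5e-05). Vnn1 changed by -0.69 (SE 0.43, adjusted p = 0.228) against CO and rose by 2.15 (SE 0.45, adjusted p = 3.956e-04) against CO_Co. Hadhb fell against CO (-0.33, SE 0.13, adjusted p = 0.0485) and rose against CO_Co (0.37, SE 0.14, adjusted p = 0.0326), the opposite sign. Aig1 fell by 1.64 (SE 0.25) against CO and changed by -0.36 (SE 0.27, adjusted p = 0.316) against CO_Co, and Ephx2 fell by 1.09 (SE 0.17) and changed by -0.30 (SE 0.18). For Scd the order was the reverse, with -0.71 (SE 0.55, adjusted p = 0.354) against CO and a fall by 2.48 (SE 0.58, adjusted p = 0.0012) against CO_Co. Ehhadh passed in both comparisons and fell by 2.31 (SE 0.26) and by 2.15 (SE 0.27).

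In MC 361 genes (2.54%) passed for CPA minus CO and 738 (5.19%) for CPA minus CO_Co. The first count was 729 without CO replicate 4 and 239 without CO replicate 3, and the second 418, 392 and 323 without CO_Co replicates 1, 3 and 4. Leaving out CPA replicate 1, 2 or 3 gave 993, 63 and 57 genes for the first and 1664, 123 and 72 for the second. Eci1 changed by 0.62 (SE 0.46, adjusted p = 0.636) against CO and rose by 2.0 (adjusted p = 0.0171) against CO_Co. Acot2 did likewise, at 0.38 (adjusted p = 0.628) and 1.27 (adjusted p = 0.0122), and so did Plin2, at 0.54 (adjusted p = 0.204) and 1.17 (adjusted p = 0.003).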

How the data were processed

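For each of the 60 arrays the authors deposited RMA expression values on the log2 scale, per the submitters' processing notes (RMA version not given in the sources used here). RMA corrects the background, normalises arrays to each other and summarises each probe set, so values of 1 array depend on the others. No further scaling was applied, and no columns of other samples were present. Of 31042 probe sets, 20826 had 1 symbol, 436 several and 9780 none, and symbols were updated through RefSeq (20758 by gene identifier, 2 by accession, while 66 kept the platform's name). Each gene was read from its brightest probe set by the mean of the 60 arrays, leaving 14217 genes. R 4.3.3 with limma 3.58.1 (lmFit, eBayes) fitted 1 mean per group over the 30 arrays of a fraction, or all 60 for the difference between fractions, with no sex term, and adjusted p-values by Benjamini-Hochberg over all genes. A gene passed at an adjusted p under 0.05, and a change is CO_Co minus CO on the log2 scale. The number of arrays limits the precision. The fit was tested on simulated data.

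Named genes were, per fraction, up to 8 rises and 8 falls among genes that passed without overlap of the groups, up to 6 passing members of each of 15 lists, and a set of clock, fasting and lipid genes; others were chosen after their values were seen. Members and lists were chosen with earlier results of these data known. Same-numbered arrays of CO and CO_Co had correlated deviations of r = -0.264 to 0.616 (HC) and -0.414 to 0.729 (MC), so between these groups the numbers were not taken to pair samples. Between fractions they were, but only for the clock gene correlations and the replicate block. The main test of the difference between fractions left the arrays unpaired. The alternatives were a sex term, only the arrays compared, a replicate block, array weights, quantile normalization, a filter on low values, another probe set per gene, each array left out, and, in MC, the hepatocyte marker mean as covariate. Within a fraction the replicate block also used only the arrays compared. Leaving out the number 1 arrays and averaging near-identical arrays were added after the data were seen. Promoters came from RefSeq.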

Additional observations from a re-analysis of the deposited data

Results flagged for a closer look

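Among 40 genes, 160 groups of arrays were checked for an array set apart from the rest of its group, and 14 were found, 8.8 per 100. Chance gives about 1 in 20 for independent groups. These groups share their arrays, and some genes were named from the same values, so the 2 rates cannot be compared. The number 1 arrays of hepatocytes held 6 of the 14. In CO, array 1 was below the others in Eci1 (10.66 against 10.97 to 11.09), Decr1 (10.50 against 10.95 to 11.03) and Acot1 (1.33 against 1.70 to 1.77). In CO_Co, array 1 was above the others in Eci1 (10.55 against 8.98 to 9.22), Decr1 (10.50 against 9.65 to 9.76) and Hadhb (9.97 against 9.30 to 9.39). Acot1 was also low on CO_Co array 3 in hepatocytes (1.15 against 1.43 to 1.44), at a level where the values carry little signal.

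In mesenchymal cells, CO array 4, which had the highest hepatocyte marker mean of its group, was above the others in Crat (6.73 against 5.86 to 6.08) and Npas2 (4.67 against 3.15 to 3.48). CO array 1, which had the lowest, was below the others in Pck1 (7.01 against 9.50 to 9.99). The part of hepatocyte RNA in these values was not tested. CO array 3 was high in Cd36 (7.96 against 6.13 to 6.65) and CO array 5 in Cry1 (5.22 against 3.90 to 4.23). CO_Co array 2 was high in Decr1 (8.59 against 7.43 to 7.54) and CO_Co array 1 slightly low in Eci1 (7.41 against 7.57 to 7.60).

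The change of Vnn1 differed between the fractions by -2.90 on the log2 scale in the limma test of the difference itself.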

How the results depend on the processing

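In hepatocytes the number of genes that passed was 10. It was 24 with array weights, 23 without the near-identical pair, 0 with only the arrays compared (20 once that pair was also left out) and 0 with the replicate block, with 1006 at an unadjusted p under 0.05 (limma), and it ran from 1 to 22 as single arrays were left out. Within a fraction the replicate block was fitted on the compared arrays only, so its counts do not show the effect of the block alone. Same-numbered arrays of CO and CO_Co deviated together for number 1 (r = 0.616 in HC, 0.729 in MC) and for number 2 in MC (0.437), but not for every number, so the pairing is not settled. In mesenchymal cells the count of 0 became 1 with the hepatocyte marker mean as covariate, stayed 0 with the replicate block (570 at an unadjusted p under 0.05), and ran from 0 to 1 with single arrays left out. The difference between fractions gave 1 gene, 0 with only the arrays compared, 1 with the replicate block, and 0 to 1 with single arrays left out. For CPA minus CO in mesenchymal cells, 361 genes became 2470 with array weights, 213 among genes above the median level, 574 with the marker covariate, 6 with only the arrays compared and 11 with the replicate block (57 to 993 with arrays left out). For CPA minus CO_Co there, 738 became 3004, 24 with only the arrays compared and 16 with the replicate block (72 to 1664). In hepatocytes the CPA counts of 4868 and 4909 were 3519 and 4257 with the replicate block and 5320 and 5701 with array weights, and ran from 3649 to 4811 and from 3734 to 4739 with single arrays left out. The cause of these shifts was not tested, except that leaving out arrays and groups leaves fewer samples.

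Changes near 0 turned sign. In hepatocytes Angptl4 was 0.0123 with array weights, and with single arrays left out the ranges were -0.18 to 0.12 for Angptl4, -0.42 to 0.34 for Npas2, -0.58 to 0.12 for Pdk4, -0.15 to 0.39 for Per2 and -0.19 to 0.30 for Tef. In mesenchymal cells Tef was 0.0227 with the marker covariate, 0.0023 after quantile normalization, 0.16 with the replicate block and 0.0705 without number 1, and Pck1 was 0.0269 with the marker covariate. Their ranges with arrays left out were -0.15 to 0.16 for Tef, -0.78 to 0.0695 for Pck1, -0.0414 to 0.14 for Fgf21 and -0.0563 to 0.24 for Vnn1. No gene that passed in hepatocytes changed sign under any alternative run.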

Other observations

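Without the number 1 arrays, 13 further genes passed in hepatocytes, some outside the lists. Ethe1, a mitochondrial enzyme of sulfide oxidation, was at 7.62, 7.44, 7.67, 7.60 and 7.49 in CO and at 7.63, 8.67, 9.08 and 9.44 in CO_Co (change 1.51, SE 0.20, limma adjusted p = 1.473e-04 without number 1, and 0.0571 with all arrays). CO_Co array 1 lay within the narrow CO range and the other three above it. Gnmt, the glycine N-methyltransferase that uses up S-adenosylmethionine, differed otherwise: it was at 11.21 on CO array 1 and 10.18 to 10.49 on the other CO arrays, and at 11.14, 11.46, 11.28 and 11.42 in CO_Co. Both number 1 arrays thus lay with CO_Co in this gene (change 1.02, SE 0.18, adjusted p = 0.0083 without them, and 0.196 with them).

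Fabp2, the intestinal fatty acid binding protein, was at 6.12 to 6.77 in CO and at 5.84, 4.78, 4.08 and 4.84 in CO_Co (change -2.0, SE 0.35, adjusted p = 0.0068 without number 1). Ldha, a lactate dehydrogenase subunit, was at 10.97 to 11.31 in CO and at 11.00, 10.31, 10.47 and 10.21 in CO_Co (change -0.84, SE 0.15, adjusted p = 0.0083). Gls2, the liver glutaminase, lay higher (change 1.0, SE 0.20, adjusted p = 0.0232), as did Icam1, an adhesion molecule of inflamed tissue (1.01, SE 0.20, adjusted p = 0.0325), and Tnfaip8 (1.04, SE 0.21, adjusted p = 0.0394). These genes were chosen after their values were seen.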
